A study of Mus musculus with 4 samples.

Results

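The miRNAs described here are known from cells that lie within the embryonic brain without being neural. They are miR-126a, known from the endothelium of blood vessels, and miR-142a, miR-223, miR-150 and miR-155, known from white blood cells. Which cells of this tissue gave their counts was not tested. The miRNAs were chosen by name, 1 row of counts each: mmu-miR-126a-5p, mmu-miR-142a-5p, mmu-miR-223-5p, mmu-miR-150-5p and mmu-miR-155-5p. All 5 were present among the 1059 mature miRNAs in the count files, and 4 of them reached the count minimum for testing (at least 10 counts in at least 2 libraries), as did 274 miRNAs in all. Small RNA came from the rostral telencephalon of E11.5 mouse embryos, in 2 libraries from Rx-Dicer mutants (genotype RxCre-DicerF/F) and 2 libraries from controls, labelled WT and given as Dicer F/F in the study's methods. The floxed Dicer allele, which by the methods both groups carry, was kept in a C57BL/6 colony and the Cre line in CD1 mice, and the mixture of backgrounds in each embryo is not given in the sources used here. Cre was driven by the regulatory sequences of Rx (Rax), a transcription factor of the early forebrain and retina, and whether Cre acts in vessels or blood cells cannot be read from these libraries. The number of embryos per library is not given in the sources used here.

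Dicer cuts most, though not all, miRNA hairpins into mature miRNAs, and each hairpin can give a 5p and a 3p arm. Blood vessels grow into the neural tube from the surrounding mesoderm, and the first macrophages of the brain, the forerunners of microglia, arrive from the yolk sac, so that vessels and macrophages share the tissue with the neuroepithelium without descending from it. miR-126a lies in Egfl7, a gene of endothelial cells, and is known for its part in vascular integrity. miR-142a is made throughout the blood lineages, miR-223 in myeloid cells, miR-150 in mature lymphocytes and miR-155 in activated lymphocytes and macrophages. For miR-126a and miR-223 the 3p arm is the better known, and of the chosen miRNAs only the 5p arms are described here. Most of the miRNAs given below for comparison are also 5p arms. The level of 1 arm need not be that of the other: miR-143-3p had 12941 counts in total and miR-143-5p 104.

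For 3 of the 5 miRNAs a mature sequence was matched by name in RefSeq (GRCm38.p6), and they are shown because the seed, bases 2 to 8 from the 5′ end (capitals), is the part that pairs with target mRNAs. The pair miR-146a-5p and miR-146b-5p, further miRNAs of white blood cells, is shown for comparison.
miR-142a-5p: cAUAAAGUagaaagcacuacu
miR-223-5p: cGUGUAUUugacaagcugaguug
miR-155-5p: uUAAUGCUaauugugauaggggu
miR-146a-5p: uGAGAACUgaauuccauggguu
miR-146b-5p: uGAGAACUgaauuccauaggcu
The first 3 have 3 distinct seeds, and no other of the 1679 mature miRNAs in the RefSeq table has any of these seeds. miR-146a-5p and miR-146b-5p have 1 seed in common and are identical at 20 of 22 bases. miR-126a-5p and miR-150-5p are named only.

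The 5 miRNAs came from 5 places in the genome (mm10, GENCODE). Mir126a lies on chromosome 2 from 26591357 to 26591429, on the plus strand, within Egfl7, where it overlaps an exon in 1 of the 9 Egfl7 transcripts that span it. It is intronic in the others, as in the overlapping gene model Gm20532. Mir142 lies on chromosome 11 from 87756864 to 87756927, in the intron of the non-coding gene Mir142hg. Mir155 lies on chromosome 16 from 84714140 to 84714204, where both transcripts of its host Mir155hg have an exon. Mir223 lies on chromosome X from 96242817 to 96242926, where both annotated transcripts of the non-coding gene F630028O10Rik have an exon. Mir150 lies on chromosome 7 from 45121757 to 45121821, and no other annotated gene overlaps it. Mir126a and Mir142 each have an annotated hairpin on the opposite strand (Mir126b and Mir142b), and the 3 rows for these had 0 counts in every library.

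The libraries held 516517 to 651031 counts in mutants and 1133553 to 1299067 in controls over mature miRNAs, so both mutant libraries were shallower. Levels are given as scaled CPM (CPM, the count as a share of the library in parts per 1e6, after edgeR's TMM scaling, with factors of 1.14 to 1.17 in mutants and 0.814 to 0.926 in controls). Such levels compare a miRNA with the rest of its own library and would miss a loss common to every miRNA. Reads copied by PCR are not independent molecules, and intervals for a single library or share describe counting error alone. A count of 3, taken as the smallest level a library can show, corresponded to 2.50 to 5.12 scaled CPM. The labelled tissue was checked against 4 neural miRNAs. miR-9-5p, the best known of them, had the highest level of all tested miRNAs (241150 and 259356 scaled CPM in mutants, 340117 and 524463 in controls), miR-124-5p and miR-128-1-5p were also tested, and miR-137-5p had 6 to 18 counts. Of the 3 tested, 0 passed the adjusted threshold described below, 2 had an unadjusted p under 0.05 in edgeR and 2 in DESeq2, and the median log2 fold change was −0.72.

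Together the 5 miRNAs made up a small part of each library. Their summed counts were 702 and 419 in mutant libraries 1 and 2, or 0.108% (95% Wilson interval 0.100 to 0.116) and 0.0811% (0.0737 to 0.0893) of all counts. In control libraries 1 and 2 they were 995 and 810, or 0.0766% (0.0720 to 0.0815) and 0.0715% (0.0667 to 0.0765). As scaled CPM the sums were 923 and 715 in mutants and 828 and 879 in controls, so the groups overlapped. miR-126a-5p and miR-155-5p held most of these counts in every library, while miR-223-5p held 0.741% to 2.15% of them and miR-150-5p 1.71% to 4.81%.

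In the order of mean level over the 4 libraries, miR-155-5p came first with 379.9 scaled CPM and miR-126a-5p second with 333 scaled CPM. These are ranks 103 and 111 of the 274 tested miRNAs. The libraries of these neighbours overlapped, so their order is not set beyond the spread. miR-142a-5p followed with 88.4 scaled CPM, at rank 161, and its highest library (106) lay below the lowest library of miR-126a-5p (244). miR-150-5p had 24.0 scaled CPM, at rank 233, and its highest library (42.3) lay below the lowest of miR-142a-5p (59.1). miR-223-5p was lowest with 10.7 scaled CPM, and its libraries overlapped those of miR-150-5p. In the ranking of tested miRNAs by mean level, let-7b-5p (389 scaled CPM) and miR-1291 (379 scaled CPM) stood beside miR-155-5p. miR-669c-5p (334) and miR-455-5p (326) stood beside miR-126a-5p, miR-467c-5p (88.7) and miR-323-5p (85.4) beside miR-142a-5p, and miR-770-5p (24.8) and miR-92a-2-5p (23.3) beside miR-150-5p.

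**Figure D1:**
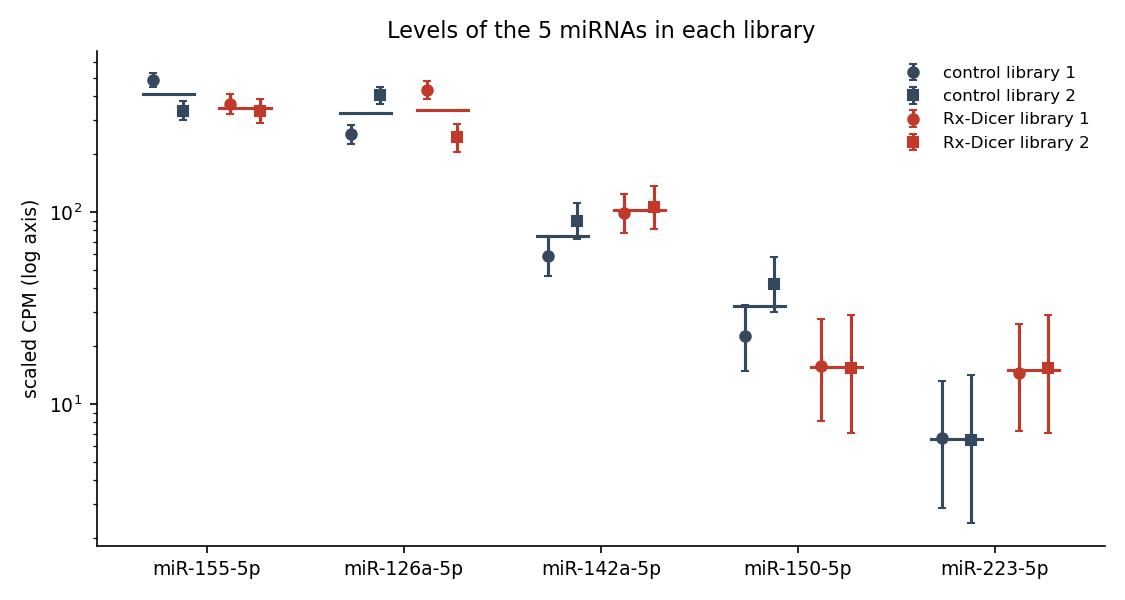
Scaled CPM (log axis) of the 5 miRNAs in each library, with 95% exact Poisson intervals for counting error as bars and the mean of each group of 2 libraries as a line. miR-126a-5p has a high and a low library in each group (431 and 244 in mutants, 404 and 254 in controls), while both mutant libraries of miR-150-5p lie below both control libraries and both of miR-142a-5p and miR-223-5p lie above.

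The comparison of genotypes asked whether the level of these miRNAs differs when Dicer is deleted from the Rx lineage. None of the 4 that were tested passed the adjusted threshold of 0.05 in edgeR's quasi-likelihood test, in either direction, and none had an unadjusted p under 0.05 with TMM scaling and the count minimum. In 5 fits with other settings an unadjusted p fell under 0.05, for miR-142a-5p (0.029 with total counts alone) and for miR-150-5p (0.019 with equal counts of red-cell miRNAs, 0.013 with no count minimum, 0.041 with all precursor rows and 0.028 without control library 1), and their adjusted p in these fits was 0.147 to 0.473. Across all 274 miRNAs, 2.55% were called lower and 0% higher at the adjusted threshold, and the shares at an unadjusted p under 0.05 were 8.39% for lower and 1.09% for higher. DESeq2's Wald test called 0 of the 4 at an adjusted p under 0.05, gave none an unadjusted p under 0.05, and gave no adjusted p for miR-150-5p. The log2 fold changes of the 4 were negative for 2 and positive for 2, with a median of −0.097 beside 0.035 over all tested miRNAs. In bulk tissue, fewer cells of a type and less miRNA per cell cannot be told apart, so none of these values separates the number of vessels or white blood cells from the level within them.

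For miR-126a-5p, the endothelial miRNA, counts were 328 and 143 in mutant libraries 1 and 2 and 305 and 372 in control libraries 1 and 2. As scaled CPM this was 431 and 244 in mutants and 254 and 404 in controls. Each group thus held a library with a high level and a library with a low level, and the groups overlapped fully. The counting intervals of the high and low libraries did not overlap within either group (386 to 481 against 206 to 287 in mutants, 364 to 447 against 226 to 284 in controls), so the difference between libraries of a genotype was larger than counting error. The mutant mean was 338 ± 133 scaled CPM and the control mean 329 ± 106 (SD, n = 2 for both). The log2 fold change was 0.045 with a 95% interval of −0.80 to 0.89 (standard error 0.36), and the adjusted p was 0.990 in edgeR. This interval runs from a level 0.573 times that of controls to 1.86 times, and a change within these bounds was not detectable with these libraries. Without mutant library 1 the log2 fold change was −0.43, and without control library 2 it was 0.42, so the sign depended on which library was left out.

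miR-155-5p, the most abundant of the white blood cell miRNAs, had 276 and 196 counts in mutants and 584 and 310 in controls. Its scaled CPM were 363 and 334 in mutants and 486 and 336 in controls. Control library 1 stood above the other 3 libraries, and its counting interval (447 to 527) overlapped with none of theirs. This separation depended on the scaling. As shares of all counts, with no TMM scaling, the values were 0.0424% and 0.0379% in mutants and 0.0450% and 0.0273% in controls. The Wilson interval of control library 1 (0.0415 to 0.0488) then overlapped with those of both mutant libraries (0.0377 to 0.0477 and 0.0330 to 0.0436). The log2 fold change was −0.24 with a 95% interval of −0.87 to 0.40 (standard error 0.27), and the adjusted p was 0.804 in edgeR. Without control library 1 the log2 fold change was 0.091.

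miR-142a-5p, the miRNA made across the blood lineages, had 75 and 62 counts in mutants and 71 and 83 in controls. From the shallower mutant libraries this gave 98.7 and 106 scaled CPM, against 59.1 and 90.1 in controls, so that both mutant libraries lay above both control libraries. The gap was narrow: the counting interval of the higher control library (71.7 to 112) held both mutant values. The log2 fold change was 0.46 with a 95% interval of −0.35 to 1.27 (standard error 0.34), and the adjusted p was 0.659 in edgeR. It was 0.22 without control library 1 and 0.79 without control library 2. As shares of all counts, with no TMM scaling, the values were 0.0115% and 0.0120% in mutants and 0.00547% and 0.00732% in controls.

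miR-150-5p, known from mature lymphocytes, had 12 and 9 counts in mutants and 27 and 39 in controls. Which cells of this embryonic tissue gave these counts was not tested. The scaled CPM of miR-150-5p were 15.8 and 15.4 in mutants and 22.5 and 42.3 in controls. Both mutant libraries lay below both control libraries, and the spread was wider in controls. The log2 fold change was −1.04 with a 95% interval of −2.15 to 0.085 (standard error 0.48), and the adjusted p was 0.497 in edgeR. It was the 17th lowest of the 274 log2 fold changes. It was −0.52 without control library 2 and −1.39 without control library 1, so its size depended on the control library used. As shares of all counts, with no TMM scaling, the values were 0.00184% and 0.00174% in mutants and 0.00208% and 0.00344% in controls, in the same order.

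miR-223-5p, a miRNA of myeloid cells, had 11 and 9 counts in mutants and 8 and 6 in controls, too few for testing. As scaled CPM this was 14.5 and 15.4 in mutants and 6.65 and 6.51 in controls, so both mutant libraries lay above both control libraries. The counting intervals were wide, from 7.22 to 25.9 and from 7.02 to 29.2 in mutants and from 2.87 to 13.1 and from 2.39 to 14.2 in controls, and each mutant interval overlapped with each control interval. In a fit with no count minimum, over 634 miRNAs, its log2 fold change was 1.00 with a standard error of 0.56, and the adjusted p was 0.759 in edgeR.

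Of the 4 tested miRNAs, 1 was lower in both mutant libraries than in both control libraries (miR-150-5p) and 1 was higher in both (miR-142a-5p). Among all 274, 24.5% were lower in both and 17.9% higher in both, so non-overlap of this kind was common in the table. The counts for the 4 are close to these shares, and whether the white blood cell miRNAs differ from each other in direction was not tested.

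**Figure D2:**
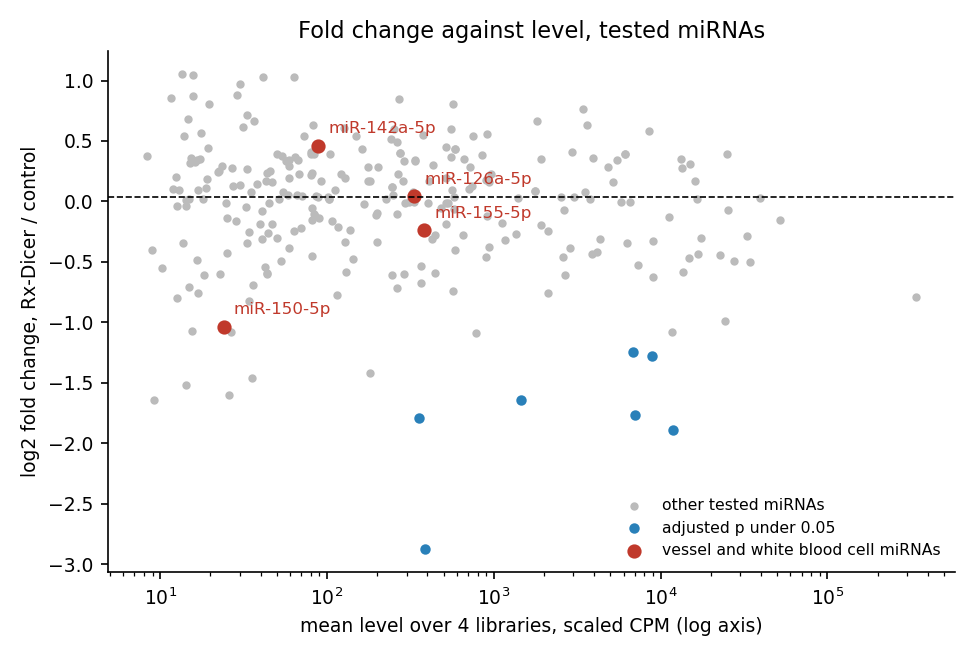
Log2 fold change of Rx-Dicer mutants over controls against the mean level over the 4 libraries (scaled CPM, log axis), 1 point per tested miRNA. The dashed line is the median of all 274 (0.035), the 7 blue points have an adjusted p under 0.05, and the 4 red points, from −1.04 for miR-150-5p to 0.46 for miR-142a-5p, lie within the cloud of the other miRNAs.

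The ratio of 2 miRNAs within a library does not depend on how libraries are scaled to each other. The ratio of miR-142a-5p to miR-126a-5p was 0.229 and 0.434 in mutant libraries 1 and 2 and 0.233 and 0.223 in control libraries 1 and 2. It was thus nearly the same in 3 libraries and higher in mutant library 2, the mutant library with the low miR-126a-5p level. The ratio of miR-155-5p to miR-126a-5p was 0.841 and 1.37 in mutants and 1.91 and 0.833 in controls. Here the genotypes overlapped, and the 2 libraries with low miR-126a-5p had the higher ratios. miR-126a-5p is the denominator of both ratios, and of those of miR-150-5p and miR-223-5p below. A low level of miR-126a-5p raises all of these ratios by construction.

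For miR-150-5p the ratio to miR-126a-5p was 0.0366 and 0.0629 in mutants and 0.0885 and 0.105 in controls, lower in both mutant libraries, with a difference in mean log2 ratio of −0.96. For miR-223-5p it was 0.0335 and 0.0629 in mutants and 0.0262 and 0.0161 in controls, higher in both mutant libraries, with a difference of 1.13. The ratio of miR-126a-5p to miR-451a, a red-cell miRNA, was 0.407 and 0.223 in mutants and 0.403 and 0.482 in controls, and the genotypes overlapped. Whether both of these miRNAs depend on Dicer alike was not tested. For the 2 ratios without overlap the p was 0.333 (exact permutation test, two-sided), which is the smallest p that 2 libraries against 2 allow, and adjusted over the 5 ratios it was 0.833. The exact p of the other 3 ratios was 0.667 to 1. The size of the differences depended on single libraries: for miR-142a-5p the difference of 0.47 was 0.0049 without mutant library 2 and 0.93 without mutant library 1. For miR-223-5p it was 0.67 without mutant library 2, and for miR-150-5p −0.56 without mutant library 1.

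The other miRNAs of the same cells gave no call either. Of 5 further miRNAs of white blood cells, 3 were tested and 0 passed the adjusted threshold in edgeR's quasi-likelihood test or in DESeq2's Wald test, with 0 at an unadjusted p under 0.05. Their median log2 fold change was −0.28, and 0.11 with total counts alone. miR-146a-5p, induced by inflammatory signals, had 280.2 and 234 scaled CPM in mutants and 239 and 234 in controls, a log2 fold change of 0.12 (95% interval −0.49 to 0.73). Its relative miR-146b-5p was more abundant, with 801 and 831 scaled CPM in mutants and 1268 and 845 in controls, a log2 fold change of −0.37 (95% interval −1.03 to 0.28). As for miR-155-5p, control library 1 was the highest. miR-342-5p, from an intron of Evl, had 499 and 688 scaled CPM in mutants and 882 and 551 in controls, again with control library 1 on top. miR-147-5p had at most 2 counts in a library, and miR-511-5p had 0 counts in all 4 libraries. miR-511 is a miRNA of macrophages, but only its 5p arm was listed, so these counts give no measure of macrophages in the tissue.

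Of 9 further miRNAs linked to vessels, 5 were tested and 0 passed in either test, with 0 at an unadjusted p under 0.05 and a median log2 fold change of −0.052. DESeq2 gave 2 of them no adjusted p. These miRNAs (from the miR-23, miR-27 and miR-24 clusters, and miR-221) are not particular to endothelium. Their log2 fold changes ran from −1.08 for miR-23b-5p, which had 4 and 9 counts in mutants and 33 and 13 in controls, to 0.39 for miR-27a-5p. miR-24-2-5p had 120 and 75.1 scaled CPM in mutants and 67.4 and 107 in controls, the same high and low libraries as miR-126a-5p. miR-27a-5p comes from the same cluster as miR-24-2-5p and had 93.4 and 143 in mutants and 75.7 and 104 in controls, with the mutant libraries in the opposite order. miR-221-5p, at 20 to 60 counts, had a log2 fold change of −0.26, and miR-27b-5p one of −0.052.

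Vessels also carry smooth muscle cells and pericytes, which with other mesenchymal cells make miR-143, miR-145a, miR-199a and miR-214. All 5 listed mature forms (both arms of miR-143) were tested, 0 passed in either test, DESeq2 gave 1 no adjusted p, and 0 had an unadjusted p under 0.05. Their log2 fold changes were all positive, from 0.34 to 0.61, with a median of 0.52, under TMM scaling, and 2 of the 5 turned negative with equal counts of red-cell miRNAs (median 0.14). Their summed level was 15454 and 15268 scaled CPM in mutant libraries 1 and 2 and 6375 and 15242 in control libraries 1 and 2, so it lay 2.39-fold above control library 1 in control library 2, and control library 1 alone stood apart. The miR-126a-5p level was also the lower of the 2 controls in that library, and the part of mesenchymal tissue in the miR-126a-5p values was not tested.

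Red-cell miRNAs, which report on blood in the tissue, had a summed level of 7601 and 8510 scaled CPM in mutants and 5741 and 6367 in controls, higher in both mutant libraries. Most of this sum was miR-486a-5p, with 6522 and 7379 scaled CPM in mutants and 5093 and 5489 in controls. All 3 were tested, 0 passed in either test and 0 had an unadjusted p under 0.05 in edgeR (1 in DESeq2), with a median log2 fold change of 0.39 (0.80 with total counts alone). DESeq2 gave 1 of the 3 no adjusted p. miR-451a had 1060 and 1096 scaled CPM in mutants and 630 and 837 in controls, a log2 fold change of 0.56 (95% interval −0.043 to 1.16, edgeR adjusted p = 0.497). miR-144-5p, at 14 to 38 counts in a library, had 18.4 and 35.8 scaled CPM in mutants and 19.1 and 41.2 in controls, with overlapping groups. Its log2 fold change was −0.16, with a wide 95% interval of −1.41 to 1.10. White blood cells of the circulation come with red cells. Beside this, miR-142a-5p and miR-223-5p were higher in both mutant libraries, miR-150-5p was lower in both, and the groups overlapped for miR-155-5p. miR-223-5p had too few counts for testing. Among all 274 tested miRNAs, 17.9% were higher in both mutant libraries and 24.5% lower in both. The part of blood content in these values was not tested.

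**Figure D3:**
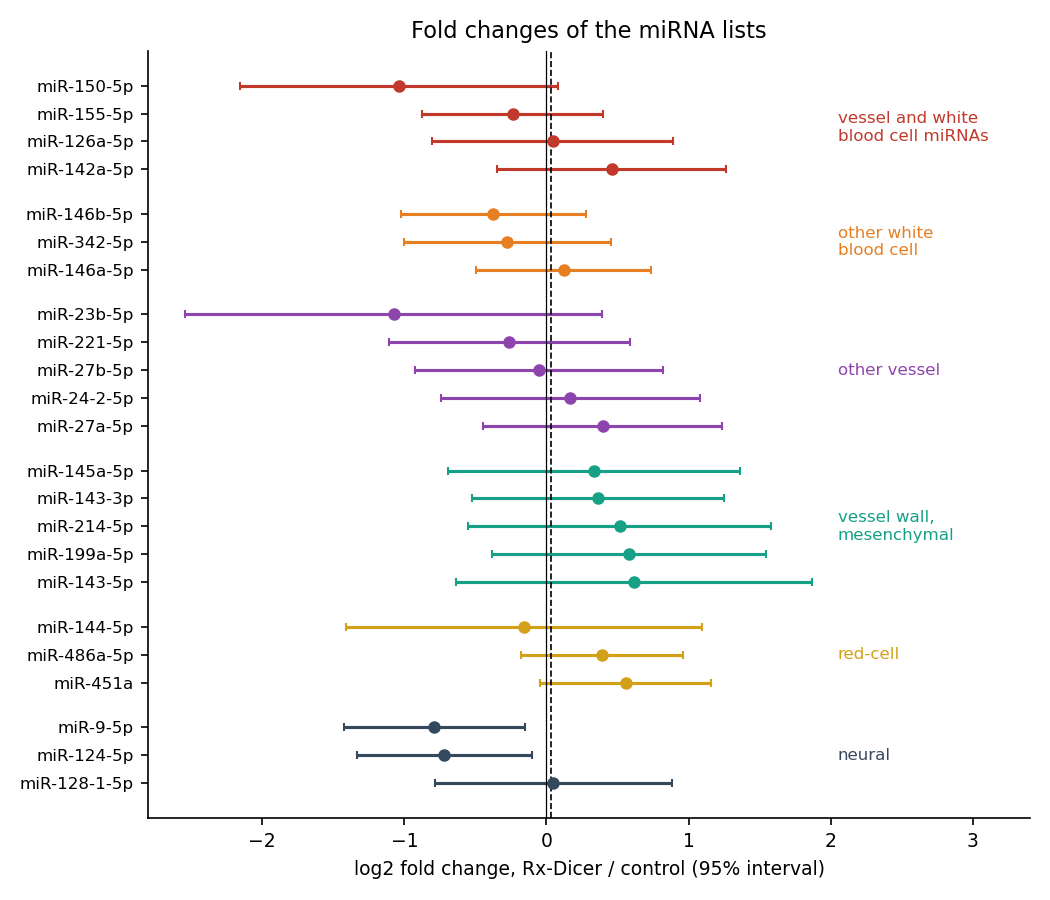
Log2 fold change of Rx-Dicer mutants over controls (points) with the 95% interval from edgeR's quasi-likelihood fit (bars) for the tested miRNAs of 6 lists, with the median of all 274 tested miRNAs as a dashed line. All 4 intervals of the vessel and white blood cell miRNAs include 0, and miR-150-5p has the widest of them (−2.15 to 0.085).

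The pattern over the 4 libraries was compared as log2 scaled CPM centred on the mean of each miRNA. With 4 libraries such likeness is a description only. The miRNAs nearest to miR-126a-5p were miR-3066-5p (Euclidean distance 0.093), miR-376a-5p (0.17) and miR-24-2-5p (0.17). Those nearest to miR-142a-5p were miR-431-5p (0.14), miR-18a-5p (0.16) and the red-cell miR-451a (0.16). For miR-155-5p they were miR-181c-5p (0.15), miR-3074-5p (0.16) and miR-1947-5p (0.17), and for miR-150-5p miR-9-5p (0.23), miR-3068-5p (0.37) and miR-99a-5p (0.38).

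The 4 tested miRNAs were not close to each other: 5 of their 6 pairwise distances (0.79 to 1.38) were above 0.90, the median distance over all pairs of tested miRNAs. The order seen in miR-126a-5p, with mutant library 1 above 2 and control library 2 above 1, was also present in miR-150-5p, miR-24-2-5p, miR-143-5p, miR-145a-5p, miR-199a-5p and miR-214-5p. This order was looked for after the values were seen, and 65 of the 274 tested miRNAs (23.7%) had it. The other tested miRNAs of the vessel and mesenchymal lists (miR-143-3p, miR-27a-5p, miR-27b-5p, miR-23b-5p and miR-221-5p) did not have it.

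**Figure D4:**
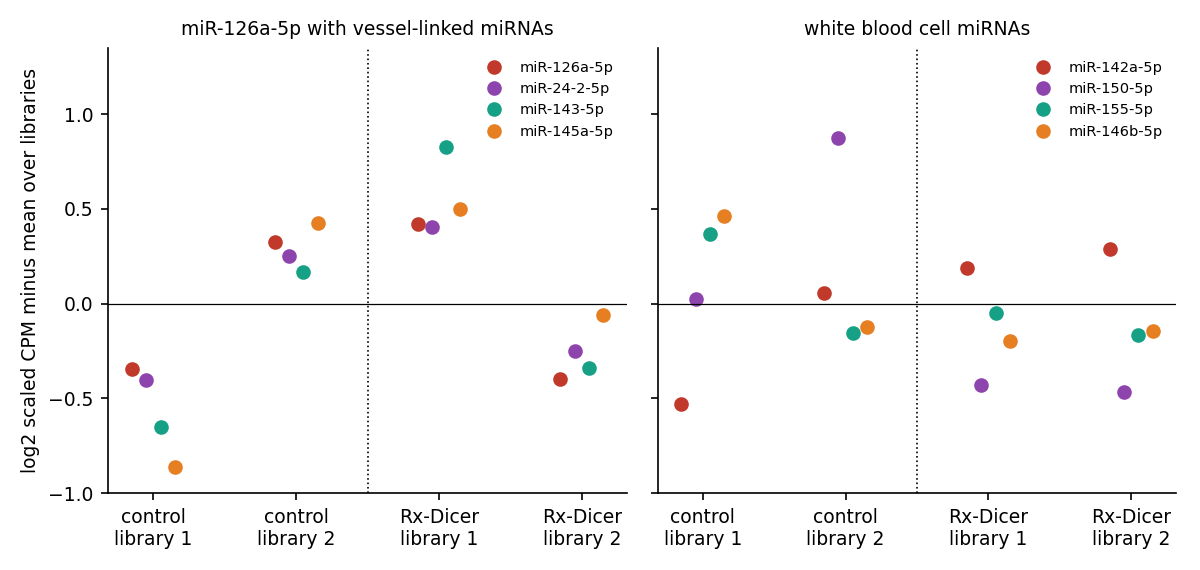
Log2 scaled CPM minus the mean of each miRNA over the 4 libraries, by library, with the dotted line between genotypes and 1 colour per miRNA. On the left, miR-126a-5p, miR-24-2-5p, miR-143-5p and miR-145a-5p are above their mean in control library 2 and Rx-Dicer library 1 and below it in the other 2. This pattern was looked for after the values were seen. The other tested vessel and mesenchymal miRNAs, not drawn, do not lie above and below their means in this way. On the right, the white blood cell miRNAs show no common order.

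The scaling set the sign of the smaller fold changes. Over the 274 miRNAs the median log2 fold change was 0.44 with total counts alone and −0.37 with equal counts of 3 red-cell miRNAs. Read against the median of each scaling, the log2 fold change over 6 scalings was 0.0092 to 0.037 for miR-126a-5p, 0.42 to 0.44 for miR-142a-5p, −1.07 to −1.05 for miR-150-5p and −0.29 to −0.27 for miR-155-5p. A change of scaling moves all log2 fold changes by a similar amount, so these ranges are narrow by construction.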

How the data were processed

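Small RNA libraries (2 of Rx-Dicer mutants, 2 of controls) were sequenced by the authors with 75-base single-end reads and counted with miRDeep2 on mm10 and miRBase 22, and the submitters' processing notes also list FastQC 2.6.14. The deposited values are raw counts, 1 row for each mature miRNA of each precursor. The version of miRDeep2 and its mismatch settings are not given in the sources used here, and reads fitting near-identical miRNAs (miR-146a, miR-146b) can be counted on each.

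The precursor row with the highest total was kept per mature miRNA, and those reaching 10 counts in 2 or more libraries were tested with edgeR 4.0.16 (glmQLFit, glmQLFTest, TMM, genotype only, limma 3.58.1, R 4.3.3). P-values were adjusted over all 274 miRNAs by the Benjamini-Hochberg method (threshold 0.05). The 95% intervals of fold changes used the standard error (log2 fold change over the root of F) and edgeR's total degrees of freedom. These add prior degrees of freedom, from the spread shared across all tested miRNAs, to the residual ones, so the intervals are narrower than residual degrees of freedom alone would give. Counting intervals were exact Poisson, and shares used Wilson intervals (scipy 1.17.1). Alternatives included DESeq2 1.42.0, other scalings, minimums and rows, a replicate block, and each library left out, and the directions of the other lists under each scaling were added after seeing the data. The ratio tests added 0.5 to each count.

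The miRNAs named are the 5 members, the other listed miRNAs, the 3 nearest to each tested member by Euclidean distance of centred log2 CPM (prior count 2), and the members' neighbours in level. The members and lists were chosen with earlier results of these data known. Scripts were tested on simulated data. Libraries of a genotype differed by more than sampling noise (chi-square per degree of freedom 57.6 and 255), and each was used as a replicate. The labels do not say that they came from separate embryos, so p-values measure the spread between these libraries.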

Additional observations from a re-analysis of the deposited data

How the results depend on the processing

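With 2 libraries per genotype, the standard errors of the 4 tested miRNAs (0.27 to 0.48 on the log2 scale) limited what could be detected, and miR-223-5p and miR-150-5p were further limited by their counts. The number of these miRNAs called was 0 in each of the 15 alternatives. The number of all miRNAs called lower was 7 in the main comparison, 4 with DESeq2's size factors, 0 with total counts only, 3 with upper-quartile scaling, 11 with DESeq2's Wald test, 11 with all precursor rows, 11 under scaling to red-cell miRNAs, 14 with no count minimum, and 0 to 6 with a library left out, and 0 were called higher in each setting. The log2 fold change of miR-126a-5p (0.045) was −0.33 under scaling to red-cell miRNAs, 0.48 with total counts only, −0.13 with no count minimum and −0.43 to 0.42 with a library left out. That of miR-155-5p (−0.24) was 0.15 with total counts only, −0.66 under scaling to red-cell miRNAs and −0.48 to 0.091 with a library left out. Those of miR-142a-5p (0.059 to 0.88) and miR-150-5p (−1.42 to −0.52) kept their sign in the 14 alternatives that gave a value. With a minimum of 100 counts neither was tested. The difference in the log2 ratio of miR-155-5p to miR-126a-5p (−0.23) was −0.83 to 0.37 with a library left out, with differences of 0.0049 to 0.93 for miR-142a-5p, 0.67 to 1.59 for miR-223-5p and −1.36 to −0.56 for miR-150-5p to miR-126a-5p, and −0.98 to −0.12 for miR-126a-5p to miR-451a. A fit with 1 library in a genotype assumes that it varies like the others. With the replicate block, 0 miRNAs were called in edgeR, and the log2 fold change was 0.029 for miR-126a-5p, 0.49 for miR-142a-5p, −0.97 for miR-150-5p and −0.22 for miR-155-5p. Deviations of same-numbered libraries had a correlation of 0.091, and nothing in the labels ties them to 1 litter or day, so they were not treated as pairs. The cause of these differences was not tested.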
